A study of Homo sapiens with 8 samples.

Results

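The E2F transcription factors and the retinoblastoma pocket proteins were followed through 10 genes, E2F1, E2F2, E2F3, E2F4, E2F5, E2F7, E2F8, RB1, RBL1 and RBL2. They were represented by every probe set that the platform annotation gives to one of these symbols, 22 of 54675 probe sets and 10 of 19775 named genes. The expression values came from 8 Affymetrix arrays of HTETOP, a human cell line made from HT1080 fibrosarcoma, in which TOP2A, the gene of topoisomerase II alpha, can be switched off with tetracyclines. In 3 arrays the cells had received 100 µM dexrazoxane, a catalytic inhibitor of topoisomerase II, for 24 h, and 3 arrays carried their vehicle controls. A further array carried cells given 1 µg/ml doxycycline for 24 h to silence TOP2A, beside 1 vehicle array. All 4 groups share the regulated TOP2A of this line, all are cultures of this 1 line, and each array carried RNA pooled from 3 passages.

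E2F proteins bind DNA as dimers with DP partners at the promoters of genes needed to enter S phase. E2F1, E2F2 and E2F3 are known mainly as activators, E2F4 and E2F5 mainly as repressors that work together with pocket proteins, and E2F7 and E2F8 as atypical repressors that bind neither DP partners nor pocket proteins. The pocket proteins pRB, p107 and p130, encoded by RB1, RBL1 and RBL2, hold E2F in check until cyclin-dependent kinases phosphorylate them. E2F1, E2F2, E2F7, E2F8 and RBL1 are themselves known E2F-regulated genes, so that their transcripts are linked to the cell cycle.

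The values are log2 intensities made with RMA, in which levels of different probe sets are not strictly comparable, so treatments were compared only within a probe set. Levels across probe sets served as a rough guide, for the filter, for the choice of the brightest probe set and for calling others dim. TOP2A read 6.02 with doxycycline against 11.98 with its vehicle, and 11.20, 10.92 and 10.52 with dexrazoxane against 12.41, 12.55 and 12.40 with vehicle. Median log2 values of whole arrays were 5.49 to 5.57 in the dexrazoxane comparison and 4.81 and 4.82 in the doxycycline pair, and levels were not compared between them. Of the markers looked at, 11 of 12 mesenchymal genes reached the filter on low values described below, among them VIM with a mean of 13.7. So did 3 of 8 epithelial markers (KRT8, KRT18 and CLDN4, but not EPCAM or CDH1), 2 of 7 leukocyte markers (CD3E and ITGAM, but not PTPRC) and 3 of 5 endothelial markers (PECAM1, TEK and VWF, but not CDH5). Reaching the filter therefore does not show that a gene is expressed. Means over the 8 arrays were 6.72 for CD3E and 6.31 for PECAM1, beside 6.50 for E2F8 and 6.22 for RBL1.

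Under dexrazoxane, the fit planned as the main one, which had no block, called 0 of the 10 genes. The paired analysis, an alternative to it, called 2 lower and none higher: RBL1, the p107 gene (1.53-fold lower), and E2F8 (1.46-fold lower). The 3 activator genes, the genes of the pocket-bound repressors E2F4 and E2F5, the other atypical gene E2F7, and RB1 and RBL2 were not called. The paired analysis was limma with the replicate number that treated and vehicle arrays share held as a block, at an adjusted p under 0.05 (Benjamini-Hochberg) over the 14731 genes tested, of which it called 4.87%, 2.44% lower and 2.42% higher. Each gene was tested on its brightest probe set, provided that the mean was at or above the 40th percentile over the table, as was the case for all 10. Without the block limma called 0 of the 10 genes and 0 of all 14731, with 0 of the 10 and 765 of all genes at an unadjusted p under 0.05. Nothing in the labels ties the numbered arrays to separate cultures, and the p-values then describe array-to-array spread that may be technical.

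E2F8 encodes an atypical E2F that represses E2F target genes during S and G2 phase. Its 1 probe set (219990_at) had log2 values of 6.83, 5.87 and 5.78 on dexrazoxane arrays 1 to 3, against 7.44, 6.16 and 6.54 on vehicle arrays 1 to 3. Each dexrazoxane array lay below the vehicle array of its number, but the groups overlapped, since dexrazoxane array 1 was higher than vehicle arrays 2 and 3. The means were 6.16 ± 0.58 with dexrazoxane and 6.71 ± 0.66 with vehicle (SD, n = 3 each). The differences by number were -0.61, -0.29 and -0.76, with a mean of -0.55 ± 0.10 (SE of the paired limma fit, adjusted p = 0.0253). The 95% interval ran from -0.78 to -0.32 in the paired fit and from -1.38 to 0.28 without the block (limma adjusted p = 1.00). Only 0.597% of genes tested had a difference this low or lower.

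RBL1 encodes p107, a pocket protein that binds E2F4 and E2F5 and takes part in the DREAM complex. Its brightest probe set (205296_at) read 6.65, 5.70 and 5.19 on dexrazoxane arrays 1 to 3 and 7.13, 6.17 and 6.07 on vehicle arrays 1 to 3. Here too every dexrazoxane array was below its numbered vehicle array, and here too the groups overlapped through the high values of the arrays numbered 1. The means were 5.85 ± 0.74 with dexrazoxane and 6.46 ± 0.58 with vehicle (SD, n = 3 each). By number the differences were -0.47, -0.47 and -0.88, with a mean of -0.61 ± 0.10 (SE of the paired limma fit, adjusted p = 0.0187). The 95% interval was -0.84 to -0.38 in the paired fit and -1.50 to 0.28 without the block (limma adjusted p = 1.00), and 0.312% of genes had a difference this low or lower.

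RBL1 had 4 probe sets, the most in the family, and all of them were lower in 3 of 3 numbers. The second (1555004_a_at) read 5.35, 4.47 and 4.52 with dexrazoxane against 5.43, 4.93 and 4.90 with vehicle, a difference of -0.31 ± 0.10 (SE, paired limma over all probe sets, adjusted p = 0.208). The other 2 had means under the filter, with differences of -0.22 for 1559307_s_at and -0.15 for 1555003_at, and in both of these the treated and vehicle arrays did not overlap. They were the 2 of 22 member probe sets without overlap, against 8.94% of all probe sets. Of the 10 genes on their brightest probe sets it was 0, against 10.1% of genes tested. When every probe set with 1 gene symbol was tested without the filter, the paired limma fit called 0 of the 22 probe sets, against 0.204% of all probe sets lower and 0.168% higher. Without the block it also called 0 of the 22, against 0.00243% of all probe sets. In that test the adjusted p was 0.0582 for RBL1 (205296_at) and 0.0750 for E2F8. A paired fit of genes with no filter kept both calls (adjusted p = 0.0261 for RBL1 and 0.0367 for E2F8).

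The calls changed with the arrays that entered. Each paired fit with a number left out holds fewer arrays, and the share of all genes called in it is not given here. Its count of members called therefore has no scale to be set against. With arrays of number 1 left out, RBL1 and E2F8 differed by -0.68 and -0.52 with limma paired adjusted p-values of 0.0592 and 0.107, and 0 members were called. With number 2 left out both kept their calls, at -0.68 each (limma paired adjusted p = 0.0033 for E2F8 and 0.0064 for RBL1). With number 3 left out E2F8 lost its call (-0.45, adjusted p = 0.0560) and RBL1 kept it (-0.47, 0.0353). Without the block, leaving out 1 array moved E2F8 by over 1.5 times without dexrazoxane array 1 (-0.88), dexrazoxane array 3 (-0.36), vehicle array 1 (-0.19) or vehicle array 2 (-0.83). RBL1 moved as far without dexrazoxane array 1 (-1.01), dexrazoxane array 3 (-0.28) or vehicle array 1 (-0.27), and both stayed below 0 throughout.

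**Figure D1:**
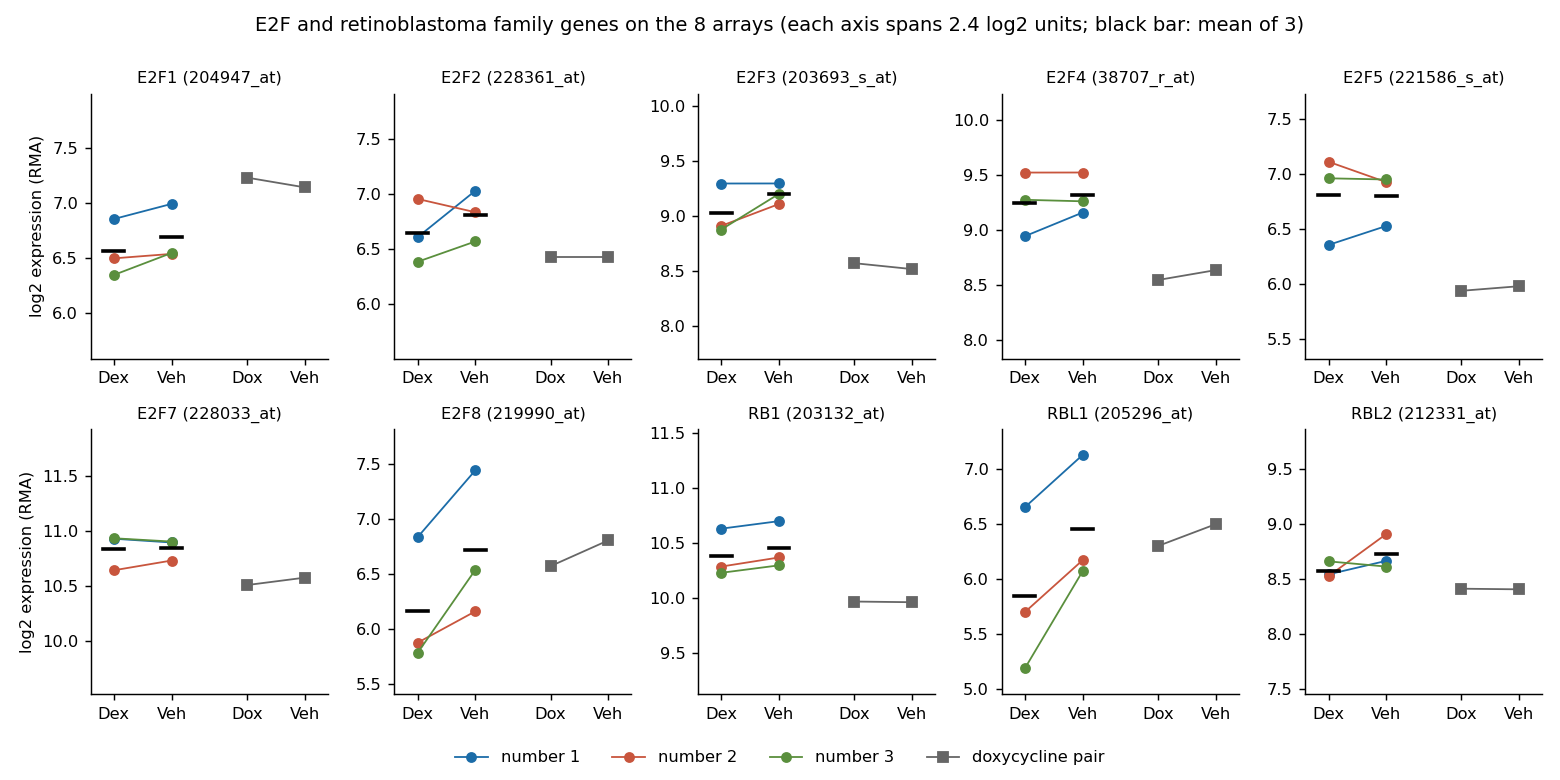
Log2 expression of the brightest probe set of each gene on the 8 arrays, with dexrazoxane (Dex) left of its vehicle (Veh) and doxycycline (Dox) left of its vehicle. Lines join arrays of the same number and black bars mark means of 3 arrays. All 3 lines of E2F8 and of RBL1 run upward to the vehicle side, and the arrays numbered 1 are the highest of their group for both genes.

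The arrays numbered 1 stood apart for several members in both groups. E2F1, E2F3, E2F8, RB1 and RBL1 were highest on number 1 with dexrazoxane and with vehicle, whereas E2F4 and E2F5 were lowest there. The median log2 value of 38 E2F target genes of G1/S phase moved alike, at 9.14, 8.61 and 8.64 on dexrazoxane arrays 1 to 3 and 9.65, 8.99 and 9.01 on vehicle arrays 1 to 3. The shift with the array number was as large as that with dexrazoxane for these genes, and its part in the results was not tested beyond the block and the left-out numbers above. In a culture of many cells, fewer cells in a given phase and less transcript in each cell cannot be told apart.

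Among the activators, E2F1, the founding member, showed a small difference of one sign. Its brightest probe set (204947_at) read 6.85, 6.49 and 6.34 with dexrazoxane, against 6.99, 6.54 and 6.54 with vehicle. The difference was -0.13 ± 0.08 (SE, paired limma adjusted p = 0.366), with a 95% interval of -0.30 to 0.05, and was negative in 3 of 3 numbers. Its other probe set (2028_s_at) was also lower in 3 of 3, by -0.05. For scale, 19.4% of genes tested were below vehicle in 3 of 3 numbers, and so were 5 of the 10 members: E2F1, E2F3, E2F8, RB1 and RBL1.

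E2F3, another activator, had values of 9.29, 8.91 and 8.88 with dexrazoxane and 9.29, 9.11 and 9.20 with vehicle (203693_s_at). The difference by number was near 0 for number 1, -0.20 for number 2 and -0.32 for number 3, with a mean of -0.17 ± 0.09 (SE, paired limma adjusted p = 0.273). The interval of -0.37 to 0.02 includes 0. Its other probe set (203692_s_at) differed by -0.09 and was higher with dexrazoxane in number 2.

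E2F2, the third activator, read 6.61, 6.95 and 6.38 with dexrazoxane and 7.03, 6.83 and 6.57 with vehicle (228361_at). Number 2 went against the others, and the mean difference of -0.16 ± 0.11 was not called (SE, paired limma adjusted p = 0.411). All 3 E2F2 probe sets shared this pattern, lower in numbers 1 and 3 and higher in number 2. The other 2 had mean differences of 0.00 (207042_at) and -0.06 (235582_at, under the filter).

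The genes of the pocket-bound repressors were near 0 on their brightest probe sets only. E2F4 differed by -0.07 ± 0.08 and E2F5 by 0.01 ± 0.09 (SE, paired limma adjusted p = 0.677 and 0.971). The probe sets of E2F4 disagreed: 38707_r_at had a mean difference of -0.07, while 202248_at was higher with dexrazoxane in 3 of 3 numbers, by 0.18 ± 0.09 (SE, paired limma over all probe sets, adjusted p = 0.399). That was the 1 member probe set of 22 that was higher in all 3. The dim E2F5 probe set 222051_s_at differed by -0.28, -1.09 and 0.85 by number, the widest spread of any member probe set.

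E2F7, the other atypical repressor gene, differed from E2F8 in its values. It read 10.93, 10.64 and 10.93 with dexrazoxane and 10.89, 10.73 and 10.90 with vehicle, a difference of -0.01 ± 0.07 (SE, paired limma adjusted p = 0.964) with an interval of -0.18 to 0.16. A second E2F7 probe set (241725_at) differed by -0.13. Whether E2F7 and E2F8 responded differently was not tested.

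Among the pocket protein genes other than RBL1, RB1 was steady. Its probe set 203132_at read 10.63, 10.29 and 10.23 with dexrazoxane and 10.70, 10.37 and 10.30 with vehicle, so that the 3 differences were -0.07, -0.08 and -0.07. Their mean was not distinguished from 0 (paired limma adjusted p = 0.600, interval -0.24 to 0.09), since limma sets the error of a gene partly from all genes. The dimmer RB1 probe set (211540_s_at) differed by -0.13, with number 1 higher. RBL2, the gene of p130, which is the pocket protein of resting cells, read 8.54, 8.52 and 8.66 with dexrazoxane and 8.66, 8.91 and 8.61 with vehicle, a difference of -0.15 ± 0.09 (SE, paired limma adjusted p = 0.384). Its dimmer probe set (212332_at) differed by -0.18. On both probe sets numbers 1 and 2 were lower with dexrazoxane, while number 3 was higher, by 0.05 and 0.19.

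Over the 10 genes the median difference was -0.14, against 0.02 for all genes tested, and 9 of 10 were below 0, against 45.4% of all genes. Over the 22 probe sets the median was -0.13 and 20 were below 0, against 49.4% of all probe sets. Of the 22 probe sets 18 reached the filter. Probe sets of 1 gene share its transcript, and members share the cell cycle, so these counts describe the family and carry no test.

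**Figure D2:**
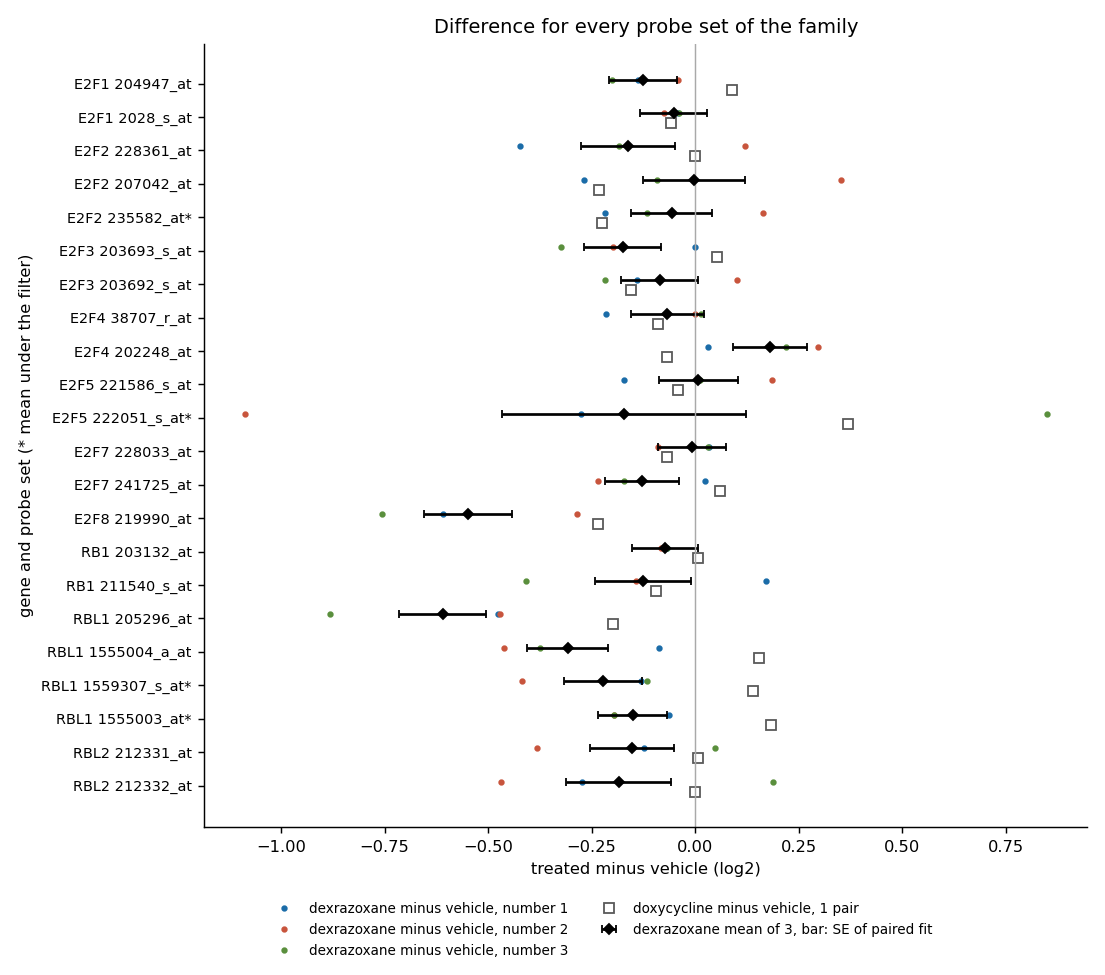
Treated minus vehicle on the log2 scale for each of the 22 probe sets, with coloured points for each numbered dexrazoxane pair, a black diamond and SE bar for their mean, and an open square for the doxycycline pair. The brightest RBL1 probe set and the E2F8 probe set have the lowest means for dexrazoxane, -0.61 and -0.55, while the doxycycline squares lie between -0.23 and 0.37.

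RBL1 and the activator genes are known for E2F sites close to their starts, and the sequences just upstream of the starts are shown for these genes because they are where such sites lie. They are 130 bases each, taken from RefSeq promoter windows of build GRCh38.p14 and written 5′ to 3′ on the strand of the gene, ending at the base before the annotated start. RBL1 is at chr20:37095998-37096127 on the minus strand, E2F1 at chr20:33686386-33686515 on the minus strand, E2F2 at chr1:23531234-23531363 on the minus strand and E2F3 at chr6:20401749-20401878 on the plus strand. Capitals mark matches to TTTNGCG or GGCGGGAA on either strand.
RBL1: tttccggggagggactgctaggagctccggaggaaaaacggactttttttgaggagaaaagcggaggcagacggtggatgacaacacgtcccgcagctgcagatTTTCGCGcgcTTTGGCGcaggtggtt
E2F1: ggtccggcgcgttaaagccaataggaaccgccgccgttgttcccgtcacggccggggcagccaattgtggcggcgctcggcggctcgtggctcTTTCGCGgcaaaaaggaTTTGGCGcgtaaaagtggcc
E2F2: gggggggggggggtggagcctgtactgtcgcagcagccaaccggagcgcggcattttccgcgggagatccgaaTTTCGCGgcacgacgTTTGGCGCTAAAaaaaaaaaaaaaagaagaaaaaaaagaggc
E2F3: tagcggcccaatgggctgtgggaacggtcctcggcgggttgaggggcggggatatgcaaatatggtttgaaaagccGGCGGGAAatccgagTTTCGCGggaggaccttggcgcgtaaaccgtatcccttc

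RBL1 and E2F1 each hold TTTCGCG followed by TTTGGCG within the last 40 bases before the start. The first letters of these matches lie 26 and 16 bases before the start in RBL1 and 37 and 20 bases before it in E2F1. E2F2 has TTTCGCG 57 bases before its start, and a second stretch where matches on both strands overlap, and E2F3 has 1 match to each motif. Among all 35116 promoter windows of 300 bases, 5.14% held TTTNGCG and 3.16% held GGCGGGAA on either strand. Windows were used for 8 of the 10 genes, and 6 of their 10 windows held TTTNGCG: those of E2F1, E2F2, E2F4, E2F7 and RBL1 and 1 of the 2 windows of E2F3. E2F5 and E2F8 are named only, as no window of theirs was used. The RB1 window belongs to a start inside the gene, 172699 bases from its 5′ end. A match describes letters and is not a bound site, and genes with matches were found both among the called (RBL1) and among those not called (E2F1, E2F2, E2F3, E2F4 and E2F7).

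**Figure D3:**
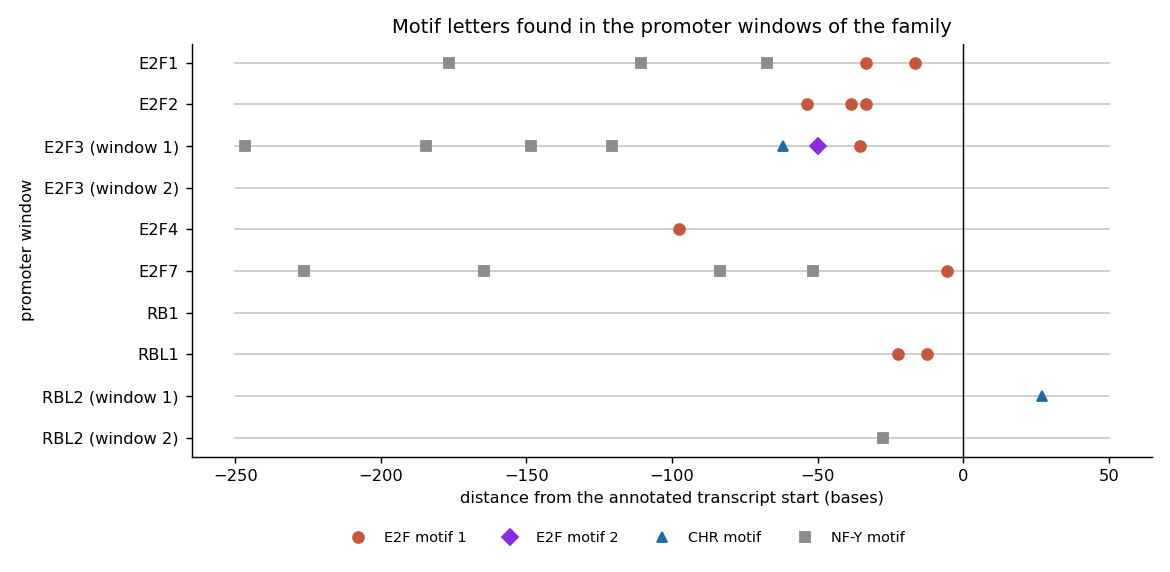
Positions of 4 motifs in the 10 promoter windows, as distance in bases from the annotated transcript start: E2F motif 1 is TTTNGCG, E2F motif 2 is GGCGGGAA, the CHR motif is TTTGAA and the NF-Y motif is CCAAT, each on either strand. The matches to E2F motif 1 in E2F1, E2F2, E2F3, E2F7 and RBL1 lie within 60 bases before the start, and the windows of RB1 and the second window of E2F3 hold none of the 4.

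In the doxycycline pair, where TOP2A was silenced without an inhibitor, 0 of the 10 genes differed by 1.5-fold or more, against 0.129% of all genes tested. There was 1 array in each group, so these differences have no error and no test. E2F8 had the lowest difference of the 10, with 6.57 on the doxycycline array against 6.80 on its vehicle array, or -0.23, and 4.92% of genes were at least as low. RBL1 read 6.30 with doxycycline and 6.50 with vehicle on its brightest probe set, a difference of -0.20, with 7.12% of genes at least as low. The other 3 RBL1 probe sets had the opposite sign, with differences of 0.14 to 0.18.

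For the remaining genes the doxycycline differences on the brightest probe set were within the SD of 0.146 over all genes. E2F1 differed by 0.09 and E2F3 by 0.05, E2F4 by -0.09, E2F7 by -0.07, E2F5 by -0.04, and RB1 and RBL2 by 0.01 each. The brightest E2F2 probe set had the same value on both arrays, as 9.62% of all probe sets in this pair did, while the other 2 differed by -0.23 each. The largest difference of any member probe set was 0.37 for the dim E2F5 probe set 222051_s_at. In all, 5 of the 10 genes were below 0, against 40.7% of all genes tested, and the median was -0.02 against 0.02.

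The other genes of the pathway were taken from 7 lists. The counts below are from the paired limma fit, whose shares over all genes were 2.44% lower and 2.42% higher. For its fits with a number left out, shares over all genes are not given here. Without the block limma called 0 genes of every list. Among the 12 partner and MuvB genes, 1 was lower and 1 higher. LIN9, a scaffold of the MuvB core that DREAM shares with the MYB and FOXM1 complexes, fell by 0.51 ± 0.08 on the log2 scale (SE, adjusted p = 0.0180). LIN37, the MuvB subunit needed for repression by DREAM, rose by 0.51 ± 0.07 (SE, adjusted p = 0.0144) on its brightest probe set, while the specific probe set used as an alternative differed by -0.02. Without the arrays numbered 1 neither LIN9 nor LIN37 was called (limma adjusted p = 0.0890 and 0.0675). LIN52, also of MuvB, differed by -0.18 and was not called. The DP partner gene TFDP1 differed by -0.14 and the pocket-independent repressor gene E2F6 by 0.03, and neither was called.

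Of 11 genes upstream of the pocket proteins 4 were lower and 0 higher. SKP2, the substrate receptor of the ubiquitin ligase that degrades p27, fell by 0.55 ± 0.07 (SE, paired limma adjusted p = 0.0122), with values of 9.40, 8.99 and 9.02 with dexrazoxane against 9.97, 9.46 and 9.62 with vehicle. Its cofactor gene CKS1B fell by 0.33 ± 0.07 (0.0468). The others, named after their values were seen, were the cyclin E2 gene CCNE2 (-0.61) and CDK6 (-0.32), whose product phosphorylates pocket proteins in G1. CDK2, the kinase partner of cyclin E, differed by -0.26 and was not called (paired limma adjusted p = 0.0909). Without the arrays numbered 1 the count of lower genes was 1, with SKP2 and CKS1B no longer called (0.0626 and 0.188), and without number 3 it was 2 (CKS1B, 0.126).

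Among 4 tested genes of CDK inhibitors, CDKN1A rose and the other 3 were not called. CDKN1A encodes p21, a p53-induced inhibitor that keeps pocket proteins unphosphorylated, and read 10.60, 11.05 and 10.77 with dexrazoxane against 9.98, 10.53 and 10.46 with vehicle, groups that did not overlap. The difference was 0.48 ± 0.09 (SE, paired limma adjusted p = 0.0244), and 0.11 in the doxycycline pair. Without the arrays numbered 1 it was not called (limma adjusted p = 0.112). CDKN2D differed by 0.16. CDKN2A, the gene of p16, was dim throughout, with a mean of 5.14, and differed by -0.08. It reached the filter, which does not show that a gene is expressed. Whether CDKN2A is expressed in this line was not tested, so its missing call does not show a present but unresponsive gene. Of the other CDK inhibitor genes listed, CDKN1C and CDKN2B had means under the filter.

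None of 13 genes of pocket protein corepressors was called. The genes with the smallest p without the block were SMARCA2 (-0.29), RBBP7 (-0.17) and the histone deacetylase gene HDAC1 (0.24). None of 3 tested death-related E2F1 targets was called either, with differences of 0.15 for BCL2L11, -0.07 for TP73 and 0.05 for APAF1. The sign of BCL2L11 turned with specific probe sets (-0.08).

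The E2F target genes of G1/S and replication held 27 lower and 0 higher genes of 38, with a median of -0.43. Those with the smallest p without the block were RRM2, a ribonucleotide reductase subunit gene (-0.52), the primase gene PRIM1 (-0.61) and GINS1, of the replicative helicase (-0.56). The 24 DREAM targets of G2/M held 17 lower and 0 higher genes, with a median of -0.39, led in the same way by CCNB1 (-0.40), HMMR (-0.60) and CENPA (-0.38). With the arrays numbered 1 left out, 3 genes of each of these lists were called lower, GINS1 and HMMR among them, and with number 3 left out 13 and 7. Those fits hold fewer arrays, and without their shares over all genes the drop in counts cannot be judged. CENPA also missed the threshold without number 2 (limma adjusted p = 0.0578) and CCNB1 without number 3 (0.0925). In the doxycycline pair the medians were -0.02 and -0.04, with 20 of 38 and 15 of 24 genes below 0.

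**Figure D4:**
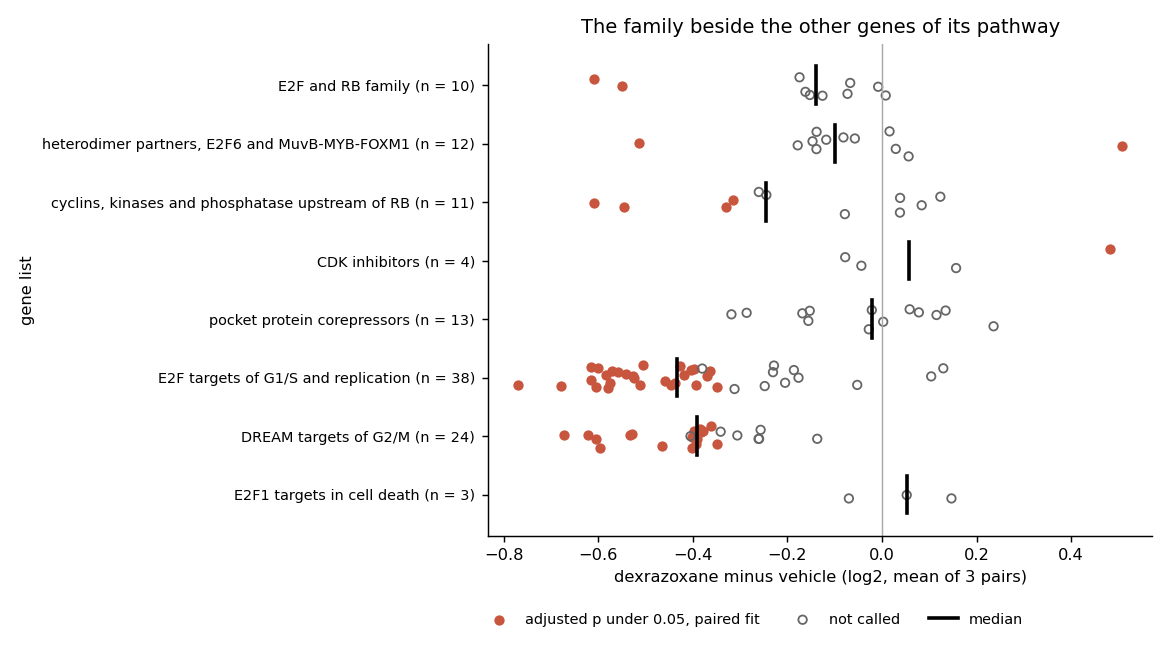
Dexrazoxane minus vehicle on the log2 scale for the 10 members and for 7 lists of other pathway genes, filled where the paired limma fit called the gene, with a bar at each median. The 8 members that were not called lie between -0.17 and 0.01, while most genes of both target lists lie below -0.3.

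Genes whose values ran most like those of E2F1 over the 6 arrays of the dexrazoxane comparison were MCM2, RCC2, PTBP1, PROSER1 and STMN1, with Pearson r of 0.998 for MCM2 and 0.996 or 0.997 for the others. For E2F8 they were ABL1 (0.998), NETO2, TOPBP1, SLCO4A1 and LIMD1 (0.995 to 0.996). With so few arrays high values were common: 433 genes reached r over 0.95 with E2F1 and 362 with E2F8. The arrays share their numbers and treatment, so r follows both, and no p is given. Of these 10 genes NETO2 (-0.42) and TOPBP1, a checkpoint and replication scaffold (-0.40), were called lower with dexrazoxane in the paired limma fit (adjusted p = 0.0291 and 0.0312).

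Of the 19 cell type markers tested, 2 were called in the paired limma fit, both higher, where 4.87% of all genes were called. They were COL6A2, a mesenchymal marker (0.35, adjusted p = 0.0461), and KRT8, an epithelial keratin (0.51, adjusted p = 0.0334), both named after their values were seen. The rise of KRT8 was close in size to the fall of E2F8. All 3 tested epithelial markers were higher in 3 of 3 numbers, with 0.26 for KRT18 and 0.18 for CLDN4, which were not called. The median log2 value of the 3 was 10.44, 10.35 and 9.85 on dexrazoxane arrays 1 to 3 and 10.19, 9.60 and 9.32 on vehicle arrays 1 to 3. The part of any change in the mix of cells in these results was not tested.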

How the data were processed

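Probe-set values on the log2 scale were deposited by the authors, who used RMA according to the submitters' processing notes, and the number of arrays limits the precision. No source used here says whether the arrays were processed together. Sorted values differed by 0.0075 to 0.019 on average between same-numbered dexrazoxane and vehicle arrays and by 0.038 to 0.100 between others. Of 54675 probe sets, 41097 with 1 annotated symbol were used, and symbols were updated through RefSeq (GRCh38.p14). The brightest probe set (mean over 8 arrays) stood for its gene, and genes with a mean of at least the 40th percentile of all probe sets (4.83) were tested. limma 3.58.1 in R 4.3.3 (lmFit, eBayes, two-sided, Benjamini-Hochberg) was fitted without a block, as planned, and with the replicate number as a block. Deviations from group means correlated at 0.823, 0.574 and 0.716 between same-numbered arrays and at -0.629 to 0.181 between others. Deviations in a group sum to 0, so positive values for same numbers push those between others down, and the contrast is partly built in. Numbers were taken as pairs on this check, which was made in these same data. Whether same-numbered arrays were alike through their processing was not tested. The doxycycline pair had 1 array a group and no test. Fits were tested on simulated data. Alternatives were the filter, the choice of probe sets, centring, quantile normalization, the variance model and left-out arrays. The members and lists were chosen with earlier results of these data known. Named were all members, TOP2A, CDKN1A, CDKN2A, TFDP1 and E2F6, the 3 genes with the smallest p without the block in each list, and the 5 genes most correlated with E2F1 and with E2F8.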

Additional observations from a re-analysis of the deposited data

How the results depend on the processing

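The 6 arrays of the dexrazoxane comparison limit every test, and the choice of the block decides the calls: with the replicate block the counts of lower members, lower pathway genes and higher pathway genes went from 0, 0 and 0 to 2, 49 and 2. Without it, the counts were 0 under every alternative tried. In the paired fit the lower members became 1 with the mean of probe sets, where RBL1 fell under the filter, and 0 with every probe set on its own, while genes with no filter kept both calls. Lower pathway genes became 28 with specific probe sets and 7 with every probe set; higher ones became 1 with the mean of probe sets and 0 in the other 2 settings. Leaving out a number gave 0 to 2 lower members, 0 to 2 lower member probe sets, 7 to 55 lower (7 without number 1, 23 without number 3) and 0 to 2 higher pathway genes. The shares of all genes called in those smaller fits are not given here. Over the alternatives the paired limma adjusted p ran from 0.0022 to 0.107 for E2F8 and from 0.0011 to 0.0592 for RBL1. Quantile normalization of the 6 arrays, added after seeing the data, kept both calls.

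Among the named genes, signs turned only for differences that were not called, apart from LIN37. With the mean of probe sets E2F4 was 0.057 and E2F5 -0.082, and with specific probe sets LIN37 was -0.018 and BCL2L11 -0.083, in both fits; after quantile normalization E2F7 was 0.00401. With 1 array left out and no block, differences ran from -0.88 to -0.19 for E2F8, -1.01 to -0.27 for RBL1, -0.27 to 0.024 for E2F1, -0.20 to 0.084 for E2F4, -0.14 to 0.23 for E2F5, -0.032 to 0.083 for E2F6, -0.064 to 0.088 for E2F7, -0.20 to 0.049 for RB1, -0.32 to 0.11 for TFDP1, -0.22 to 0.080 for CDKN2A and -0.053 to 0.19 for APAF1. With a number left out of the paired fit they ran from -0.11 to 0.0065 for E2F4, -0.081 to 0.10 for E2F5, -0.00323 to 0.086 for E2F6, -0.029 to 0.032 for E2F7, -0.19 to 0.13 for CDKN2A and -0.000844 to 0.14 for APAF1. The causes were not tested. Of 107 paired values of members under alternatives, 96 kept direction and call. No doxycycline alternative brought a member to 1.5-fold.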
